A study of Mus musculus with 12 samples.

Results

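The cytosolic ribosomal protein genes encode the protein part of the 40S and 60S subunits that join on a messenger RNA to make protein. They were taken by symbol from the gene table: symbols that begin with Rpl or Rps and a digit, with Rplp0, Rplp1, Rplp2 and Rpsa, and without the S6 kinase genes (Rps6k) and entries whose symbol holds "-ps". The rule found 86 of the 32285 genes counted, 52 with large subunit symbols and 34 with small subunit symbols. Of the 86, 9 are paralogs or related entries outside the standard set: Rpl3l, Rpl7l1, Rpl10l, Rpl22l1, Rpl36al, Rpl39l, Rps27l, Rps27rt and Rps19bp1. The other 77 comprise 46 large and 31 small subunit genes, and 5 pseudogene entries were set aside.

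As background, a ribosome carries each protein in a fixed ratio to ribosomal RNA, and cells make these proteins in a coordinated way. Many of their messenger RNAs begin with a cytosine followed by a run of pyrimidines, the terminal oligopyrimidine (TOP) motif, through which the kinase complex mTORC1, downstream of phosphoinositide 3-kinase, controls their translation and stability. In T cells, activation and PI3K signalling raise ribosome production, whereas resting and memory-like cells run it at a lower rate.

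The cells came from B16-F10 melanomas, a transplantable mouse tumour line injected into the skin of B6.129S7-Rag1tm1Mom/J mice, which lack Rag1 and so have no T or B lymphocytes of host origin. Every mouse then received CD8+ T cells from Pmel Thy1.1 donors (1000000 cells), which carry a receptor for a melanocyte antigen, by retro-orbital injection. In the CAL-101 group, 3 mice, the T cells had been treated before transfer with CAL-101, also called idelalisib, which inhibits PI3K delta. In the control group, 3 mice, they had been treated with vehicle. Live CD45.2+ leukocytes sorted from the tumours held both the transferred T cells and host cells such as natural killer (NK) cells, and the treatment had been applied to the T cells in culture only. Ages are not given in the labels.

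The libraries were droplet-based 3' libraries, in which each captured RNA molecule gives 1 unique molecular identifier (UMI), so levels of different genes needed no scaling by length. CAL-101 mice gave 6152 to 7217 cells and 75716841 to 93929471 RNA UMIs per library, against 7716 to 9147 cells and 90933212 to 97933109 RNA UMIs in control mice. Pairs of libraries shared 8 to 31 cell barcodes. The 3 deposited T cell labels (T, CD8+ T and CD4+ T) were joined in 1 class of 32861 cells, and 11687 cells were labelled NK cells. Part of the T class lay in the authors' NK cell clusters 0, 7, 8 and 9. Cluster 0 alone held 2.30% of the T class in CAL-101 and 6.01% in control mice (means of 3). The 6 T cell markers summed to 3073 to 3387 counts per 1000000 UMIs (CPM) in T cells of CAL-101 mice and 2745 to 3320 CPM in those of control mice, and to 184 to 310 CPM in NK cells. The 6 NK markers summed to 2773 to 2987 CPM in NK cells. In T cells they summed to 96.3 to 202.3 CPM in CAL-101 and 160.2 to 300.1 CPM in control mice. In cells labelled neutrophils they summed to 3139 to 3819 CPM in CAL-101 and 3225 to 3400 CPM in control mice. Their sum thus does not set NK cells apart from neutrophils. CPM is a share of all RNA, so less ribosomal protein RNA and more of other RNA per cell cannot be told apart.

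Annotated start sites of the members were searched for a TOP-like run. RefSeq (GRCm38.p6) gave start windows for 66 members, with 78 starts in all. A C followed by at least 4 pyrimidines, beginning within 5 bases of the annotated start, was present at 32 of the 78 starts (41.0%), against 18.4% of all 32851 starts in the table. Annotated starts can lie several bases from the base at which transcription begins, so a window without the run says only that these letters are not there. The windows below run from 10 bases before to 20 bases from the start on, 30 bases each, 5′ to 3′ on the gene's strand. They are shown for genes that recur in the results, with the pyrimidine run in capitals.
Rps6 (chr4:86857348-86857377, minus strand): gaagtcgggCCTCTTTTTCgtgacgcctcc
Rps18 (chr17:33955646-33955675, minus strand): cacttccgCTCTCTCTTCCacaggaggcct
Rps15a (chr7:118116128-118116157, minus strand): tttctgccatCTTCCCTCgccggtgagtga
Rpl24 (chr16:55966265-55966294, plus strand): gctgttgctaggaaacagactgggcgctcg
Rpl10 (chrX:74270806-74270835, plus strand): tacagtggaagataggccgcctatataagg
Rps27 (chr3:90213629-90213658, minus strand): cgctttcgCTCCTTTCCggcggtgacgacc
Rps27rt (chr9:114982720-114982749, minus strand): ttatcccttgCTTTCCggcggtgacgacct
Rps27l, first start (chr9:66946076-66946105, plus strand): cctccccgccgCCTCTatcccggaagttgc
Rps27l, second start (chr9:66946403-66946432, plus strand): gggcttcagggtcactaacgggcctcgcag
Rps6 and Rps18 carry long runs at the start, and the Rpl24 and Rpl10 windows hold none. Rps27 and its copy Rps27rt share the bases after their runs, whereas the first Rps27l start has a run of 5 and the second none. CCGGAAG, the core of binding sites for ETS-family factors, was searched on both strands of the 300 bases around each start. Its reverse complement, CTTCCGG, holds a C and 4 pyrimidines, so the patterns can overlap. It was present at 34.6% of the members' starts and 34.7% of the starts of mitochondrial ribosomal protein genes, against 8.86% of all starts. CACGTG, the E-box core, was present at 10.3% of the members' starts, against 7.15% of all.

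In T cells, ribosomal protein genes made up close to 20% of all RNA UMIs, and a smaller share in CAL-101 than in control mice. The share was 20.2, 20.7 and 20.7% in T cells of CAL-101 mice 1 to 3, against 22.4, 22.3 and 22.4% in control mice 1 to 3. Every CAL-101 mouse was below every control mouse. The means were 20.5% ± 0.259 in CAL-101 and 22.4% ± 0.0805 in control mice (SD, n = 3 each), a difference of -1.81 percentage points or -8.10% of the control level. The 2-sided exact permutation test over the 20 assignments of 6 mice gave p = 0.1, the smallest it can give, and 0.1 after Benjamini-Hochberg adjustment over T and NK cells. The distribution over cells was broad, and the share of the median T cell overlapped between the groups, at 16.8, 18.7 and 18.6% in CAL-101 mice and 21.0, 18.3 and 20.4% in control mice. Mitochondrial transcripts took 4.47 to 5.31% of T cell UMIs in CAL-101 mice and 4.23 to 5.30% in control mice, so these ranges overlapped.

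NK cells are host cells that had not been in the treated culture, and their share differed by nearly the same amount. It was 20.120, 20.316 and 20.001% in CAL-101 mice, against 21.602, 22.011 and 22.123% in control mice, again without overlap. The means were 20.1% ± 0.159 in CAL-101 and 21.9% ± 0.274 in control mice (SD, n = 3 each), a difference of -1.77 percentage points (2-sided exact permutation p = 0.1, 0.1 adjusted over both classes). In NK cells the median cell also differed without overlap, at 18.326, 18.651 and 18.047% in CAL-101 mice and 19.313, 20.044 and 20.176% in control mice. Mitochondrial transcripts took 3.24 to 3.61% of NK cell UMIs in CAL-101 and 2.79 to 3.28% in control mice, and their part in the result was not tested. The difference of the effects, T cells minus NK cells, was -0.0441 points (exact permutation p = 0.8), and its sign turned without CAL-101 mouse 1 (0.0921) or without control mouse 1 (0.120).

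**Figure D1:**
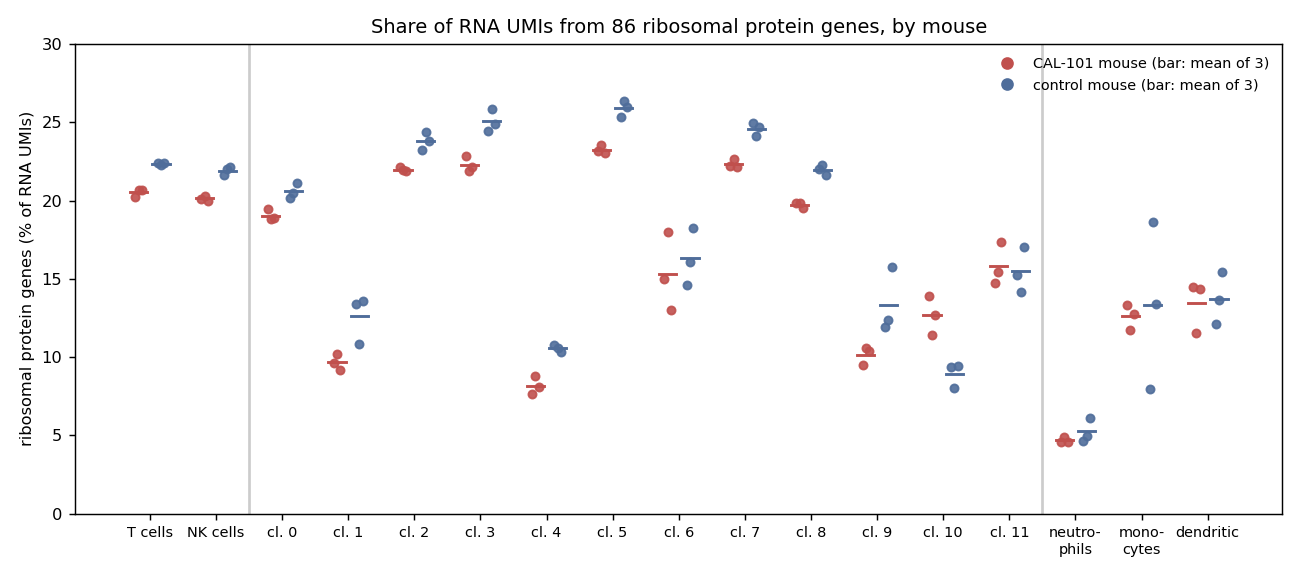
Percent of RNA UMIs from the 86 ribosomal protein genes (vertical axis) in each mouse for T cells, NK cells, the deposited clusters 0 to 11 and 3 smaller labelled types; red points are CAL-101 mice, blue points control mice and bars the means of 3. The CAL-101 points sit below the control points in T cells (20.2 to 20.7% against 22.3 to 22.4%), NK cells and most clusters, and above them in cluster 10.

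The authors' clusters spanned a wide range of ribosomal protein content. Clusters 5, 3, 7 and 2 averaged 24.6, 23.7, 23.5 and 22.9% over the 6 mice, and their ranges overlapped. Cluster 13, of 73 cells, stood above them at 30.9%. Clusters 9, 1 and 4 averaged 11.8, 11.1 and 9.37%, and their median cells held 2066.5, 2823 and 4762 UMIs with 8.55, 13.2 and 16.3% mitochondrial transcripts. Neutrophils had the lowest share of the labelled types with at least 10 cells in every mouse, 4.69% ± 0.173 in CAL-101 and 5.25% ± 0.752 in control mice (SD, n = 3 each), with overlap. Monocytes averaged 12.6% in CAL-101 and 13.3% in control mice, and dendritic cells 13.5% in CAL-101 and 13.7% in control mice, also with overlap.

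Within clusters the lower share in CAL-101 mice was seen on both sides of this range. It was lower in every CAL-101 mouse than in every control mouse in 9 of the 14 clusters, higher in 1, and overlapped in 4. In cluster 5 it was 23.2, 23.5 and 23.0% in CAL-101 mice, against 25.3, 26.4 and 26.0% in control mice. In cluster 3 it was 22.8, 21.9 and 22.1% in CAL-101 mice, against 24.5, 25.9 and 24.9% in control mice. The size of these clusters differed too. Cluster 5 held 21.8% of the T cells in CAL-101 and 2.30% in control mice. Cluster 3 held 7.39% in CAL-101 and 27.3% in control mice. The part of these sizes in the result for all T cells was not tested. In cluster 4 it was 7.65, 8.80 and 8.08% in CAL-101 mice, against 10.8, 10.6 and 10.3% in control mice. In cluster 1 it was 9.63, 10.2 and 9.20% in CAL-101 mice, against 13.4, 10.8 and 13.6% in control mice. These are shares of the summed UMIs, in which cells with many UMIs weigh more. For the median cell the groups overlapped in both clusters, at 6.49 to 7.105% in CAL-101 and 7.03 to 7.39% in control mice in cluster 4, and at 7.94 to 8.70% in CAL-101 and 8.34 to 9.45% in control mice in cluster 1. Malat1, a nuclear RNA, took a larger share of the UMIs in every CAL-101 mouse than in every control mouse in clusters 5, 1, 0 and 9. In cluster 5 it took 0.475, 0.557 and 0.430% in CAL-101 and 0.399, 0.333 and 0.343% in control mice. In cluster 1 it took 1.40 to 1.57% in CAL-101 and 1.29 to 1.34% in control mice. In NK cell cluster 0 it took 1.36 to 1.46% in CAL-101 and 1.22 to 1.33% in control mice, and in cluster 9 2.55 to 2.99% and 1.97 to 2.38%. The Malat1 share overlapped between the groups in clusters 2, 3, 4, 7 and 8, where the members' share was also lower. It overlapped too in all T cells (0.482 to 0.623% in CAL-101, 0.537 to 0.597% in control mice) and all NK cells. Its part in the result was not tested. Cluster numbers were assigned from the whole expression profile, so the members may have helped to place cells in them. In cluster 10 the members' share was 13.9, 11.4 and 12.7% in CAL-101 mice, against 9.35, 8.01 and 9.45% in control mice, the opposite order for the summed UMIs. The median cell of cluster 10 held 5.40, 6.32 and 5.63% in CAL-101 mice and 5.40, 5.75 and 6.95% in control mice, with overlap. Cells labelled neutrophils made up 44.8, 47.9 and 54.7% of cluster 10 in CAL-101 mice and 64.0, 65.5 and 48.3% in control mice, and the part of that mixture in the result was not tested.

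Gene by gene, the lower share in T cells was spread over most members of both subunits. In the edgeR quasi-likelihood fit on UMIs summed per mouse, 85 of the 86 members passed the filter on low counts, and 79 of them (92.9%) had a log2 difference below 0, against 49.7% of all 16734 genes. Their median log2 difference, CAL-101 over control, was -0.15, against 0.00 over all genes. At a Benjamini-Hochberg adjusted p under 0.05, 23 members fell and 1 rose, against a background of 19.1% of all genes called in either direction, 9.63% lower and 9.46% higher. The 23 make 27.1% of the members tested. The count of 24 rests on small differences and varied with single mice: it was 5, 10 and 12 without CAL-101 mouse 1, 2 or 3, and 4, 27 and 3 without control mouse 1, 2 or 3. The same fits called 13.9, 15.5 and 9.67% of all genes without CAL-101 mouse 1, 2 or 3, and 10.1, 22.4 and 8.33% without control mouse 1, 2 or 3. Of the 85 members tested, a smaller share than that was called in 4 of the 6 fits, and a larger one without CAL-101 mouse 3 or control mouse 2. The median log2 difference stayed between -0.16 and -0.13 in those 6 fits. Scaled by library size alone, 15 members fell and 1 rose, with a median of -0.11 (background 20.4% of genes called in either direction). In 48 members every CAL-101 mouse was below every control mouse, which held for 15.1% of all genes, and in 2 every CAL-101 mouse was above, which held for 24.5%.

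**Figure D2:**
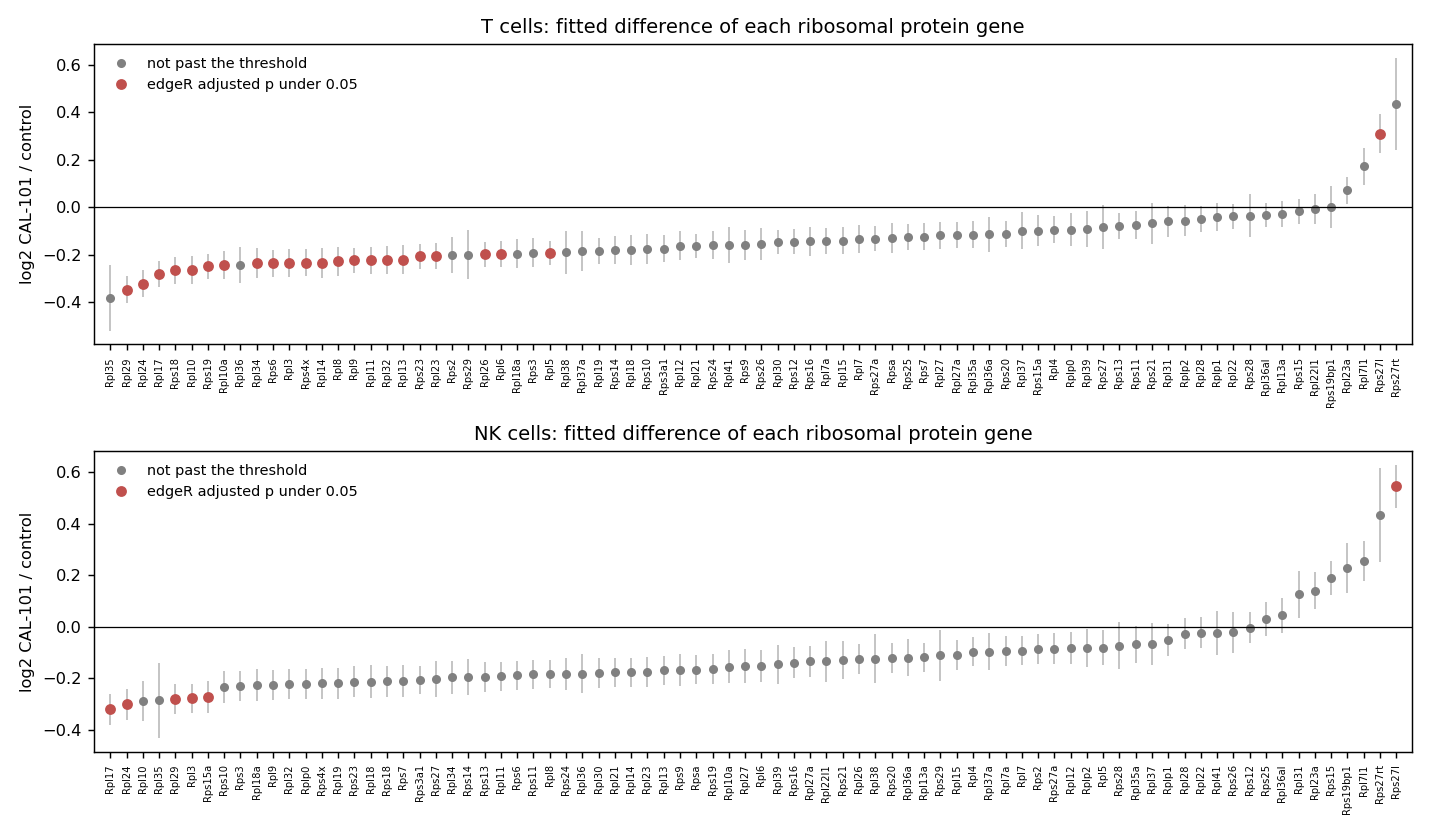
Fitted log2 difference, CAL-101 over control (vertical axis, bars are standard errors), of each ribosomal protein gene in order, in T cells above and NK cells below; 80 members with at least 300 UMIs are drawn in each class, and red points passed an edgeR adjusted p of 0.05. Most members lie between -0.35 and 0 in both classes, and Rps27l is the one red point above 0.

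Large subunit genes gave most of the calls in T cells, 17 of 46 tested, all lower, with a median log2 difference of -0.18. Rpl29, a small protein on the outer face of the 60S subunit, had 1448, 1449 and 1515 CPM in CAL-101 mice, against 1866, 1762 and 1839 CPM in control mice. The groups were well apart, and the log2 difference was -0.35 (SE 0.057, edgeR adjusted p = 0.0056). It passed the threshold in every alternative tried, with an adjusted p of at most 0.037. Rpl24, which reaches across the face where the subunits meet, had 2080.5, 2206 and 2135 CPM in CAL-101 mice, against 2653, 2479 and 2676 CPM in control mice, a log2 difference of -0.32 (SE 0.058, edgeR adjusted p = 0.0082). Rpl17, near the exit of the peptide tunnel, had 3009, 3112 and 3072 CPM in CAL-101 mice, against 3726, 3495 and 3652 CPM in control mice, a log2 difference of -0.28 (edgeR adjusted p = 0.0115). In both genes every CAL-101 mouse was below every control mouse.

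The other called large subunit genes fell by 0.26 to 0.19 on the log2 scale. Among them, Rpl10, which joins late in 60S assembly and lies close to the catalytic centre, averaged 1489 ± 65.1 CPM in CAL-101 and 1740.5 ± 60.4 CPM in control mice (SD, n = 3 each; log2 difference -0.26). Rpl3, which also reaches towards the catalytic centre, averaged 2608 CPM in CAL-101 and 2987 CPM in control mice (log2 difference -0.23, edgeR adjusted p = 0.027). Rpl5 and Rpl11, which with 5S ribosomal RNA form the particle that can bind Mdm2, had log2 differences of -0.19 and -0.22. Rpl13 and Rpl32, both among the more abundant members in T cells, averaged 5349.8 and 4785 CPM in CAL-101 mice and 6066 and 5429 CPM in control mice, and both fell (log2 difference -0.22 each). Rpl10a, Rpl34, Rpl14, Rpl8, Rpl9, Rpl23, Rpl26 and Rpl6 complete the group. Rpl35 had the lowest fitted value of all members, -0.38, but its mice were widely spread (681, 971 and 774 CPM in CAL-101, 992, 1171 and 910 CPM in control) and it did not pass the test (edgeR adjusted p = 0.093).

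The stalk proteins did not pass the test. Rplp0, Rplp1 and Rplp2 form the flexible arm of the 60S subunit that recruits elongation factors, and their log2 differences in T cells were -0.09, -0.04 and -0.06 with standard errors of 0.058 to 0.070. Rplp1 had 4129, 3945 and 4028 CPM in CAL-101 mice and 3887, 4205 and 4034 CPM in control mice, so the groups overlapped.

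Of 31 standard small subunit genes tested in T cells, 6 fell and none rose, with a median log2 difference of -0.14. Among them were Rps18, Rps19, Rps6, Rps4x and Rps23. Rps18 had 3628, 3646 and 3801 CPM in CAL-101 mice, against 4367, 4247 and 4338 CPM in control mice (log2 difference -0.26, SE 0.056, edgeR adjusted p = 0.015). Rps6, the protein that S6 kinases phosphorylate downstream of mTORC1, had 1817, 1777 and 1845 CPM in CAL-101 mice, against 2156, 2014 and 2062 CPM in control mice (log2 difference -0.24, edgeR adjusted p = 0.0235). Both sets of mice were separate. Rps19, best known because its human gene is mutated in Diamond-Blackfan anaemia, averaged 2876 CPM in CAL-101 and 3326 CPM in control mice (log2 difference -0.25). Rpsa, a 40S protein also known as the laminin receptor, had a log2 difference of -0.13 and Rps27 one of -0.08, and neither passed the test. Rps15a, Rps2, Rps24 and Rps20, among the 10 members with the highest levels in T cells, had log2 differences of -0.20 to -0.10 and did not pass it either.

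**Figure D3:**
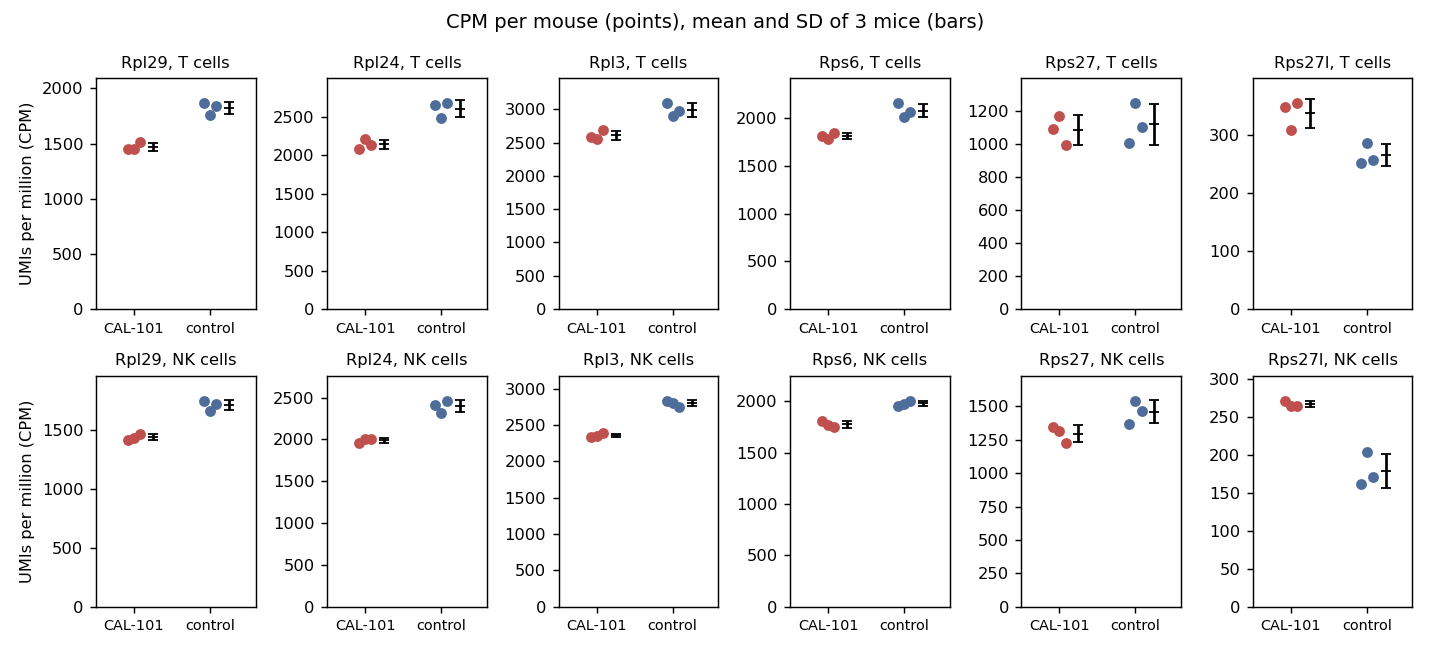
CPM per mouse of Rpl29, Rpl24, Rpl3, Rps6, Rps27 and Rps27l in T cells (top) and NK cells (bottom), with CAL-101 mice left (red) and control mice right (blue); black bars are the mean and SD of 3 mice, and axes start at 0. Rpl29 in T cells sits at 1448 to 1515 CPM in CAL-101 and 1762 to 1866 CPM in control mice, and Rps27l runs the other way.

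NK cells showed a shift of similar size with fewer genes past the threshold. Of 84 members tested, 74 (88.1%) had a log2 difference below 0, against 50.2% of all 14028 genes, and their median was -0.15, against 0.00 over all genes. At the threshold 5 members fell (Rpl17, Rpl24, Rpl29, Rpl3 and Rps15a) and 1 rose (Rps27l), against a background of 4.89% of genes called, 1.92% lower and 2.97% higher. In 50 members every CAL-101 mouse was below every control mouse (10.5% of all genes), and in 5 above (16.3%). The 5 genes that fell had log2 differences of -0.32 to -0.27. Rpl17 had 3151, 3239.8 and 3208 CPM in CAL-101 mice, against 3992, 3762 and 3980.4 CPM in control mice (log2 difference -0.32, SE 0.060, edgeR adjusted p = 0.025). Rps15a, a protein of the 40S subunit, had 3986, 4226 and 4196 CPM in CAL-101 mice, against 4835, 4872 and 4968 CPM in control mice (log2 difference -0.27, edgeR adjusted p = 0.038). Both genes separated the groups. Rplp0 had a log2 difference of -0.22 in NK cells and did not pass the test (edgeR adjusted p = 0.063). The number called was 1, 7 and 0 without CAL-101 mouse 1, 2 or 3, and 0, 29 and 0 without control mouse 1, 2 or 3. Those fits called 1.03, 3.02 and 0.0278% of all genes without CAL-101 mouse 1, 2 or 3, and 0.172, 11.2 and 0.0706% without control mouse 1, 2 or 3. Scaled by library size alone, 5 members fell and 1 rose in NK cells (background 4.96%).

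Rpl17, Rpl24, Rpl29, Rpl3 and Rps27l were called in both T and NK cells. How often genes at large were called in both is not given here, so this overlap is not read as particular to the members. The T and NK values come from the same mice and libraries. No member had a difference between groups that itself differed between T and NK cells at an adjusted p under 0.05 in limma (0 of 84, against 0.727% of all 13901 genes tested). The smallest limma adjusted p of the members, 0.21 to 0.28, were those of Rps19bp1, Rps15, Rps15a and Rps27l, and none passed.

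The calls in T cells were also counted in each of the authors' T cell clusters alone. In clusters 2 and 3, 22 and 29 members fell and none rose, against backgrounds of 12.6 and 6.74% of genes called. In cluster 5, 43 members fell and none rose (background 5.25%). In clusters 1 and 4, whose cells have low member shares and more mitochondrial transcripts, 64 members fell in each and none rose (backgrounds 11.9 and 8.33%), with median log2 differences of -0.42 and -0.39. These fits use UMIs summed over cells, and the share of the median cell overlapped between the groups in both clusters. In NK cell cluster 0, 10 fell and 1 rose (background 4.9%), and in cluster 8 none passed, where 0.0977% of all genes did.

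Rps27l was the 1 member that rose past the threshold, in T and in NK cells alike. It encodes a close relative of the 40S protein Rps27 and is known as a gene induced by p53. In NK cells it had 272, 265 and 266 CPM in CAL-101 mice, against 162, 205 and 171 CPM in control mice. The groups were far apart, with a log2 difference of 0.55 (SE 0.084, edgeR adjusted p = 0.0148, range over the alternatives 1.0e-06 to 0.26). That call was lost without CAL-101 mouse 3, without control mouse 1 or 3 (adjusted p 0.059 to 0.086 in edgeR) and in cluster 8 alone. In T cells it had 349, 309 and 355 CPM in CAL-101 mice, against 252, 287 and 257 CPM in control mice, a log2 difference of 0.31 (SE 0.080, edgeR adjusted p = 0.0314). The T cell call was lost without CAL-101 mouse 1 or 3 or control mouse 1 or 3 (adjusted p 0.083 to 0.12), and it did not pass in clusters 1 to 5 together or in any of them alone, where the log2 difference was 0.02 to 0.39. It also did not pass in clusters 2, 3 and 5 together (edgeR adjusted p = 0.19). Its level differed between those clusters, from 82.6 CPM in cluster 4 to 375 CPM in cluster 2 over the 6 mice.

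Set against its partner, Rps27l made up 24.225, 20.868 and 26.358% of the summed Rps27 and Rps27l UMIs in T cells of CAL-101 mice, against 20.040, 18.706 and 18.909% in control mice (exact 2-sided permutation p = 0.1, the smallest possible). In NK cells it made up 16.8, 16.8 and 17.8% in CAL-101 mice, against 10.6, 11.7 and 10.5% in control mice (exact permutation p = 0.1). In both classes every CAL-101 mouse was above every control mouse. Rpl7l1, named for its likeness to Rpl7, made up 2.83% ± 0.163 of the pair's UMIs in T cells of CAL-101 mice and 2.30% ± 0.163 in control mice, and 2.56% ± 0.140 in NK cells of CAL-101 mice and 2.02% ± 0.156 in control mice (SD, n = 3 each; exact permutation p = 0.1 in each class).

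The remaining related entries gave no call. Rpl22l1, a paralog of Rpl22 studied in mouse T cell development, took 32.3% ± 1.38 of the pair's UMIs in T cells of CAL-101 mice and 31.9% ± 0.963 in control mice (SD, n = 3 each; exact permutation p = 0.7). Rpl36al took 49.4% of its pair with Rpl36a in NK cells of CAL-101 mice and 46.7% in control mice (exact permutation p = 0.1), and 45.7% in T cells of CAL-101 mice and 44.4% in control mice (exact permutation p = 0.4). Rps27rt is a near-identical copy of Rps27, so how reads were split between them is uncertain. Its highest value in each class, 61.6 CPM in NK cells and 49.8 CPM in T cells, was in CAL-101 mouse 1. Rps19bp1, a nucleolar protein that binds Rps19, averaged 28.6 CPM in T cells of CAL-101 and 27.9 CPM in those of control mice. Rpl3l, known from muscle, had 107 UMIs in all T cells and 21 in NK cells. Rpl39l, known from testis, had 150 UMIs in T and 213 in NK cells, where control mouse 2 had 4.20 CPM and the other 5 mice 0.393 to 1.45 CPM. Rpl10l had 1 UMI in T and 0 in NK cells, and no difference is detectable at that depth.

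Scaling to the members' own sum sets a member against the other members, and few were called. With each library scaled to the summed UMIs of the members, which raises the log2 difference of a typical gene by 0.16 in each class, 3 members were higher and 1 lower in T cells, against 1 higher and 23 lower by the usual scaling. When scaled to the members, 4 of the 85 members tested were called in T cells, against 33.9% of all genes. In NK cells 6 of 84 were called, against 16.1% of all genes. In both classes the share of members called was below that of all genes. In T cells Rps27l (log2 difference 0.47), Rpl7l1 (0.33) and Rpl23a (0.23) were higher, and Rpl29 (-0.19) was lower. In NK cells 6 were higher and none lower when scaled to the members, among them Rps27l (0.70), Rpl7l1 (0.41), Rps19bp1 (0.38), Rps15 (0.34) and Rpl23a (0.29). On the CPM scale Rps15 averaged 1813 ± 27.1 CPM in NK cells of CAL-101 mice and 1557 ± 91.4 CPM in those of control mice (SD, n = 3 each).

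Members also differed between the classes within a mouse, many of them in the same direction in mice of both groups. The log2 of CPM + 1 in T cells over NK cells of the same mouse had a median of 0.05 over the 86 members. Of them, 31 were higher and 20 lower in T cells in all 6 mice. The share of all genes that did so is not given here, so these counts are not read as particular to the members. Rplp0 was higher in T cells by a mean of 0.41 (4383 CPM in T and 3303 CPM in NK cells over 6 mice), Rpsa by 0.32, Rpl28 by 0.29 and Rps2 by 0.28. Rps27l was higher in T cells by 0.45. Rpl10 was lower in T cells by a mean of -0.39 on that scale (1615 CPM in T and 2117 CPM in NK cells), Rpl38 by -0.35, Rps27 by -0.32, Rps27rt by -0.30 and Rps24 by -0.24. Rps27 and Rps27l thus ran in opposite directions between the classes, and Rpl39l, with its few UMIs, had a mean of -0.68.

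**Figure D4:**
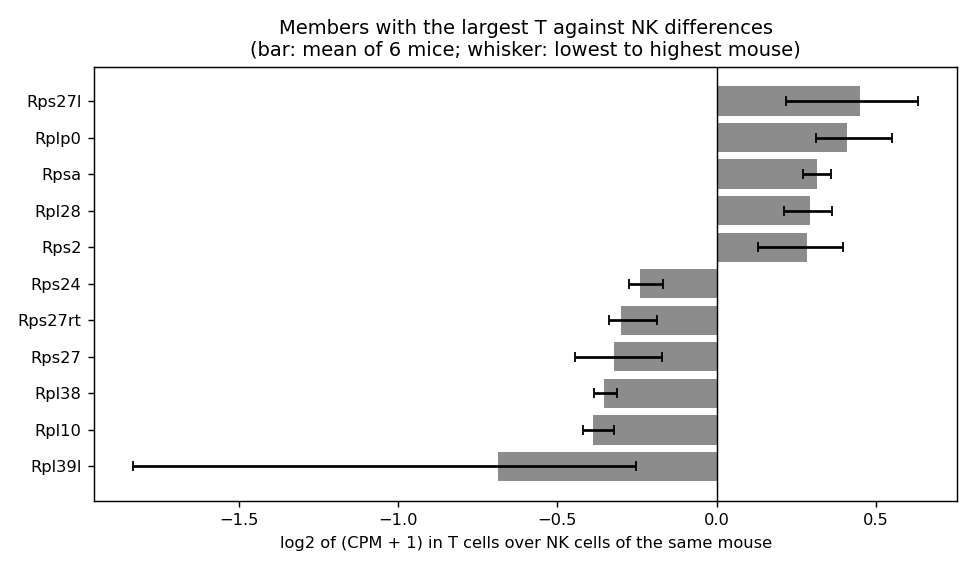
Mean over 6 mice of the log2 ratio of CPM + 1 in T cells over NK cells of the same mouse (horizontal axis) for 5 of the 6 members with the highest and the 6 with the lowest value; whiskers run from the lowest to the highest mouse. Rps27l (0.45) and Rplp0 (0.41) are at the top, and Rpl10 (-0.39) and the sparsely counted Rpl39l (-0.68) at the bottom.

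Across clusters 0 to 11 most members kept a stable part of the members' summed UMIs. Rps4x varied least, 1.09-fold between the highest and lowest cluster mean. Leaving aside Rpl10l, Rpl39l and Rpl3l, Rps27l varied most, 2.42-fold, from 0.0798% of member UMIs in cluster 1 to 0.193% in cluster 11. Rpsa took 3.37% in cluster 4 and 1.84% in cluster 0, a 1.83-fold range, and Rpl10 1.05% in cluster 7 and 0.585% in cluster 4.

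The presence of a TOP-like run at the start was not more frequent among the members that fell. In T cells 5 of the 17 genes that fell and had a start window held the run (29.4%), against 25 of the 49 other members with a window (51.0%). This is a description of annotated starts, with no test.

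Genes of the same pathways were counted by list, against the backgrounds of all genes given above, 9.46% higher and 9.63% lower in T cells and 2.97% higher and 1.92% lower in NK cells. Of 3 ribosomal protein genes under other symbols, Fau fell in both classes, with log2 differences of -0.25 in T and -0.28 in NK cells (edgeR adjusted p = 0.0311 and 0.0403), and the list medians were -0.18 and -0.12. Of 8 elongation factor genes in T cells 1 fell, Eef2, which moves the ribosome along the messenger RNA (1013 CPM in CAL-101 and 1159 CPM in control mice, log2 difference -0.23, edgeR adjusted p = 0.028). In NK cells 1 of 8 rose, Eef1e1, an accessory protein of the aminoacyl-tRNA synthetase complex (log2 difference 0.61). Of 29 initiation factor genes in T cells 2 rose (Eif4a2, 0.32, and Eif4b, 0.27) and 1 fell (Eif3f, -0.25), with a median of 0.03. In NK cells 1 rose (Eif4g1, 0.37) and 2 fell (Eif3f, -0.39, and Eif3e, -0.23), with a median of 0.09.

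Of 10 other TOP messenger RNAs, Nap1l1, a histone chaperone, rose in both classes, with 448 CPM in CAL-101 and 275 CPM in control mice in T cells (log2 difference 0.67, edgeR adjusted p = 0.0022) and 219 CPM in CAL-101 and 147 CPM in control mice in NK cells (0.54). Gas5, a non-coding host of small nucleolar RNAs, fell in NK cells, with 356 CPM in CAL-101 and 510.3 CPM in control mice (log2 difference -0.55, edgeR adjusted p = 0.0078). The remaining members of that list did not pass, and the medians were -0.06 in T and -0.14 in NK cells. The ribosome biogenesis list, whose products process ribosomal RNA, had a median above 0 in both classes: 2 of 30 rose in T cells (Nat10, 0.24, and Rrp1b, 0.31; median 0.13), and none of 30 passed in NK cells, where the median was 0.27. Of 17 RNA polymerase I and III genes none passed in T cells and 1 rose in NK cells, Polr2f (0.32), a subunit common to the 3 nuclear polymerases. Mitochondrial ribosomal protein genes had medians of 0.09 in T and 0.13 in NK cells. Of 78, 6 rose in T cells, among them Mrpl49 (0.40), Mrpl53 (0.34) and Mrps21 (0.27), and 8 in NK cells, among them Mrpl51 (0.35), Mrps25 (0.42) and Mrpl36 (0.38), and none fell. The share that rose was below the background of genes called higher in T cells and above it in NK cells. Mitochondrially encoded genes had medians of 0.08 and 0.22 in T and NK cells, none of 13 past the threshold in T cells and 3 of 13 higher in NK cells, mt-Nd2 (0.61), mt-Nd4 (0.47) and mt-Cytb (0.51).

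Among 25 genes for PI3K, AKT and mTORC1 control of translation, 6 fell in T cells and none rose, with a median log2 difference of -0.10. Pik3r1, a regulatory subunit of PI3K, had 119 CPM in CAL-101 and 193 CPM in control mice (log2 difference -0.74, edgeR adjusted p = 0.0004). Pdcd4, an inhibitor of the helicase Eif4a1, fell in T cells (log2 difference -0.39) and in NK cells (-0.53, the 1 of 25 past the threshold there). Mtor itself had 30.9 CPM in CAL-101 and 37.1 CPM in control mice (log2 difference -0.30). In the MYC network list 3 of 9 rose in T cells (Mxd3, 0.59, Mlx, 0.31, and Max, 0.24) and 1 fell, Mxd4, a MAX partner that opposes MYC (-0.58), with a median of -0.05. In NK cells 1 of 9 rose (Mxd3, 0.66) and 1 fell (Mxi1, -0.49). In the integrated stress response list 1 of 13 rose in T cells (Eif2ak2, 0.43) and 2 fell (Atf3, -0.61, and Eif2ak3, -0.40), and 1 of 12 fell in NK cells (Atf5, -0.76). The 3 ribosomal protein pseudogene entries tested gave no call in either class.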

How the data were processed

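Cells of 6 tumours, 3 mice per group, were profiled, and the replicates were separate mice. The authors deposited UMI counts per cell and gene, whole numbers and not normalised, with cell tables of cluster numbers and cell type labels. Per the file headers, counting used Cell Ranger 7.1.0. The submitters' processing notes name mm10 and Seurat. Annotation version, cell calling, filters and the method of labelling: not given in the sources used here. No deposited cell held fewer than 500 RNA UMIs. Surface protein tags were not used here.

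Counts were summed per mouse and class, since cells are not replicates. Each class was fitted in R 4.3.3 by edgeR 4.0.16's quasi-likelihood test with group as its term, TMM scaling and the filterByExpr filter, over all genes, Benjamini-Hochberg adjusted, threshold 0.05. CPM values printed are UMIs per 1000000 RNA UMIs of the class. Shares were compared with exact 2-sided permutation tests, and T against NK cell effects with limma 3.58.1 on log2 CPM (prior count 2). DESeq2 1.42.0 was an alternative. Shares and plots were made in Python 3.11.15 (pandas 2.3.3, numpy 2.4.6, matplotlib 3.10.9, scipy 1.17.1). The fits were tested on simulated counts. Pairs of mice of 1 group differed by more than sampling noise (chi-square per degree of freedom 5.01 to 44.2). Total counts per library were above, and counting error is small beside the spread between mice for all but the rarest paralogs. Doublets were not called; the 5% of cells with most UMIs were left out as an alternative.

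The members, lists and markers were chosen with earlier results of these data known. Named genes were the 10 members with the highest T cell level, up to 10 each way past the threshold in T and in NK cells, up to 6 each way by T against NK difference, the paralogs with their partners, Rplp0 to Rplp2, Rpsa and Rps6, and up to 3 genes past the threshold of each other list; others named complete a count or were chosen after their values were seen. All 86 identifiers matched a reference gene table with the same symbol. Some genes, counted in all totals, are not reported here by name.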

Additional observations from a re-analysis of the deposited data

Results flagged for a closer look

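In cluster 10 the members' share was higher in CAL-101 mice, at 12.7% ± 1.22, than in control mice, at 8.94% ± 0.802 (SD, n = 3 each), a difference of 3.73 percentage points, while in T cells every CAL-101 mouse was below every control mouse. It was singled out because the CAL-101 mice were all above the control mice in cluster 10 and all below them in T cells. The order held for the summed UMIs and not for the median cell of cluster 10, whose share was 5.40 to 6.32% in CAL-101 and 5.40 to 6.95% in control mice. The difference between the populations was not tested. Cluster 10 had 29, 94 and 75 cells in CAL-101 mice and 322, 55 and 151 in control mice.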

How the results depend on the processing

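The lower share of the members in CAL-101 mice held under all alternatives tried, at -2.53 to -1.53 points in T cells and -1.92 to -1.47 in NK cells, and -1.89 to -1.66 and -1.92 to -1.66 without single mice; fewer mice allow no p below 0.2. The difference of the effects between T and NK cells ran from -0.315 to 0.120 over all alternatives, and from -0.184 to 0.120 without single mice. The value of -0.315 was that of clusters 2, 3 and 5 against clusters 0, 7 and 8 (exact permutation p = 0.4). The counts of members past the threshold were less stable. In T cells 24 became 4 scaled to the members' summed UMIs (33.9% of all genes called) and 15 with no filter on low counts (12.7%). The T cell count was 64 in cluster 1 or 4 alone (11.9 and 8.33%) and 43 in cluster 5 alone (5.25%). Without single mice it was 3 to 27 (8.33 to 22.4%). In NK cells 6 became 26 with DESeq2 (6.64% of all genes called) and 20 with no filter (5.58%). The NK cell count was 1 in clusters 0, 7, 9 and 13 (1.58%) and 20 without the 5% of cells with most UMIs (5.11%). It was 11 in cluster 0 alone (4.9%), 0 in cluster 8 alone (0.0977%) and 0 to 29 without single mice (0.0278 to 11.2%). With a replicate block the counts were 1 in T cells and 3 in NK cells, where 8.93 and 3.37% of all genes were called, and Rps27l did not pass in T cells (edgeR adjusted p = 0.11). Same-numbered CAL-101 and control mice had deviations from their group means correlated at -0.252 to 0.00507 in T and -0.0948 to 0.0662 in NK cells. Mice of different numbers gave -0.131 to 0.291 in T and -0.104 to 0.142 in NK cells. With 3 mice per group these values cannot show whether the numbers pair the mice. No member differed between T and NK cells in any of 9 alternatives. The fits of clusters 2, 3 and 5, of clusters 0, 7 and 8 and with a scaling set without the members were chosen after seeing the data. The cause of these changes was not tested, save that fewer cells or mice enter some fits.

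Of single genes, 58 of 1535 alternative values changed sign, all of genes whose main value was not past the threshold. Scaled to the members' sum, the log2 differences were Rpl22 0.12, Rpl22l1 0.15, Rpl28 0.11, Rpl36a 0.047, Rpl36al 0.13, Rpl39 0.069, Rpl3l 0.13, Rpl7 0.027, Rplp0 0.067, Rplp1 0.12, Rplp2 0.10, Rps15a 0.063, Rps19bp1 0.16, Rps20 0.048, Rps24 0.0012, Rps27 0.079 and Rpsa 0.032 in T cells, and Rpl22 0.13, Rpl22l1 0.015, Rpl28 0.13, Rpl36a 0.032, Rpl38 0.026, Rpl39 0.0050, Rpl7 0.059, Rplp1 0.10, Rplp2 0.070, Rps2 0.065 and Rps20 0.031 in NK cells. Scaled by library size alone they were Rpl22 0.0015, Rpl22l1 0.032, Rpl36al 0.0068, Rpl3l 0.0075 and Rps19bp1 0.038 in T cells, and Rpl22 0.0069 and Rpl28 0.0041 in NK cells. In T cells Rpl3l was 0.059 in clusters 2, 3 and 5. Rps19bp1 was 0.078, 0.037 and 0.15 in clusters 1, 3 and 4, 0.0020 with no filter and 0.0027 with the block, and Rpl22l1 0.012 and 0.0015 in clusters 2 and 5. In NK cells Rpl22 was 0.037 and Rpl28 0.011 in cluster 0, and Rpl22 0.012 in clusters 0, 7, 9 and 13. Ranges without single mice were Rpl22l1 in T cells -0.059 to 0.021, Rpl28 in NK cells -0.057 to 0.0066, Rpl36al in NK cells -0.0093 to 0.074, Rpl39l in NK cells -1.53 to 0.62, Rpl3l in T cells -0.14 to 0.11, Rps19bp1 in T cells -0.056 to 0.094 and Rps27 in T cells -0.15 to 0.0043. Depth limits Rpl10l, Rpl3l and Rpl39l.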
